A study of Mus musculus with 4 samples.

Results

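The regions described here were 5940 stretches of chromatin called higher in histone H3 lysine 9 acetylation (H3K9ac) in the second condition of the study, lying inside protein-coding genes but deep in their introns. They were chosen from the deposited list by 3 conditions on the midpoint of the region: it lay within a protein-coding gene span, in no exon of any gene, and more than 10 kb from every annotated transcript start (GENCODE M21, mouse build mm10). They made up 13.1% of the 45495 regions of that condition, and the whole list held 45855 regions. No measured value entered the choice beyond the call of a region for that condition.

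HT22 cells, an immortalised line derived from mouse hippocampal neurons, were kept for 48 h in choline chloride at 5 µM (called CON, the control) or 70 µM (called SUP, the supplemented cells), in high-glucose medium with serum that both groups shared. The study's title concerns choline supplementation and Nr3c1, the glucocorticoid receptor gene. From these cells came 4 libraries, 2 of H3K9ac ChIP DNA and 2 of input DNA, and the labels do not state which choline level each came from. There was thus at most 1 ChIP library per choline level, so no difference between levels has a replicate behind it and none is tested. Region names place 5 before 70, and condition 1 is read here as 5 µM and condition 2 as 70 µM. Every direction rests on that reading, and the list holds called differences only, so a gene without a region may still be acetylated at the same level in both conditions. HT22 is a single clonal line.

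H3K9ac is placed on nucleosomes by acetyltransferases such as GCN5 and PCAF and is removed by histone deacetylases. It is strongest at active promoters, and lower levels mark active enhancers, many of which lie in introns, where sequence-specific factors such as the AP-1 dimers of FOS and JUN proteins recruit acetyltransferases. Intronic enhancers can act on the gene that holds them or on another gene, and position alone does not say which.

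The sequences of 6 of these regions are printed from the RefSeq GRCm38.p6 assembly (build mm10, plus strand) in lower case, with the 7 letters of an AP-1 motif in capitals. They are examples picked by score, width and motif, and their G+C of 48.0 to 58.5% lies at or above the 47.9% over all bases of the 5940 regions. The Slit3 region had the highest score of all, the Atp2c2 region was the highest-scoring of the widest that fit within 300 bases, the next 3 were the highest-scoring regions with an AP-1 motif in the 3 genes holding most regions, and the Col5a1 region, chosen after its values were seen, was the highest-scoring one in a densely marked matrix gene.
Slit3 intron, chr11:35299967-35300207: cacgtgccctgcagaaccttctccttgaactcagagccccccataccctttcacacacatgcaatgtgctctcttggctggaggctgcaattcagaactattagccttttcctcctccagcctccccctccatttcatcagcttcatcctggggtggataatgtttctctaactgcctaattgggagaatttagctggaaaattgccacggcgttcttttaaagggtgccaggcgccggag
Atp2c2 intron, chr8:119745008-119745307: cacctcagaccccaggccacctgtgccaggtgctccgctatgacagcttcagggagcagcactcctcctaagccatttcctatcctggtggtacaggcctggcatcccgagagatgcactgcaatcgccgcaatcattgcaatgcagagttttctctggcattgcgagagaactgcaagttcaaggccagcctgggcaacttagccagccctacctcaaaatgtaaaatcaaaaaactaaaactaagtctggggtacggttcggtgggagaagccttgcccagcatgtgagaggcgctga
Gm20388 intron, chr8:120823348-120823547: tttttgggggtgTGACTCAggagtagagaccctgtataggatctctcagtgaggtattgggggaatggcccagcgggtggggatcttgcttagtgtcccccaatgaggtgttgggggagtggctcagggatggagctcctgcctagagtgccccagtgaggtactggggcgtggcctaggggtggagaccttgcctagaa
Nsmce2 intron, chr15:59524194-59524337: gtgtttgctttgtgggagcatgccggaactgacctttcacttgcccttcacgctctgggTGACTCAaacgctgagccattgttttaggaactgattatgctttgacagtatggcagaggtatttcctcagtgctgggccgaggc
Tbc1d22a intron, chr15:86292300-86292599: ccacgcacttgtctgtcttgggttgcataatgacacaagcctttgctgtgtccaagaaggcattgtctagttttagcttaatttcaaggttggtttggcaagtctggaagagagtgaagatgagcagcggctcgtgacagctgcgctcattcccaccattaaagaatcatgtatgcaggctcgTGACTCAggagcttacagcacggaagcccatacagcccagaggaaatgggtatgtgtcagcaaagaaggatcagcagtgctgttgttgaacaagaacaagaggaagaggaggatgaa
Col5a1 intron, chr2:27926450-27926652: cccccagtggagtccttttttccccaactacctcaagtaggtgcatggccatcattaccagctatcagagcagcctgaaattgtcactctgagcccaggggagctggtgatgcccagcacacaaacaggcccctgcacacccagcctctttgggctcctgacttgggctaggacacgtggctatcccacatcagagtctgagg
The Slit3 region held 5 CpG dinucleotides in 241 bases at 51.5% G+C and no AP-1 motif, and it began with the E-box letters CACGTG. The Nsmce2 region carried its AP-1 motif from base 60, in 144 bases at 51.4% G+C. The Tbc1d22a region is 302 bases wide and its first 300 are printed, with the AP-1 motif from base 184. The Col5a1 region was the poorest in CpG of the 6, with 1 in 203 bases, although 56.7% of its bases were G or C.

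The intronic sequence in which such a region could lie, called eligible intron below, came to 511.8 Mb. The 5940 regions therefore fell at 11.6 per Mb (exact Poisson 95% interval 11.3 to 11.9), or 1 per 86.2 kb, and covered 0.199% of the eligible bases. This was the sparser end of the list within genes. Condition 2 regions within 1 kb of a transcript start numbered 87.4 per Mb, which was 7.53 times the density of the distant intronic regions, and those in coding-gene introns 1 to 10 kb from a start numbered 28.6 per Mb, which was 2.47 times that density. Sequence outside coding genes at the same distance from starts held fewer, at 6.39 per Mb (6.25 to 6.54), so that the distant introns were 1.82 times as dense. Condition 1 contributed 32 regions to the eligible introns out of its 360, or 8.89% against 13.1% for condition 2. Intervals here and below cover counting error only and treat regions as independent, although many lay in clusters.

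Within the eligible introns the density fell step by step with distance from the nearest start. It was 17.1 per Mb (16.3 to 17.97) at 10 to 15 kb, 12.47 per Mb at 20 to 30 kb, 7.28 per Mb at 50 to 100 kb and 3.36 per Mb (2.40 to 4.57) beyond 200 kb. The nearest band was 5.10 times as dense as the farthest, and the intervals of these 4 bands do not overlap. The median distance was 21.3 kb. The region nearest a start lay 10001 bp away, in Spred2, which encodes an inhibitor of Ras and MAP kinase signalling, and the farthest lay 525 kb away, in Ptprd, a receptor tyrosine phosphatase of synapses. The distance threshold cut through a continuum: the 410 regions within 1 kb inside it had a median score of 9.54 and a median width of 165 bp in the authors' deposited table, and the 461 intronic regions within 1 kb outside it had 9.75 and 163 bp.

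**Figure D1:**
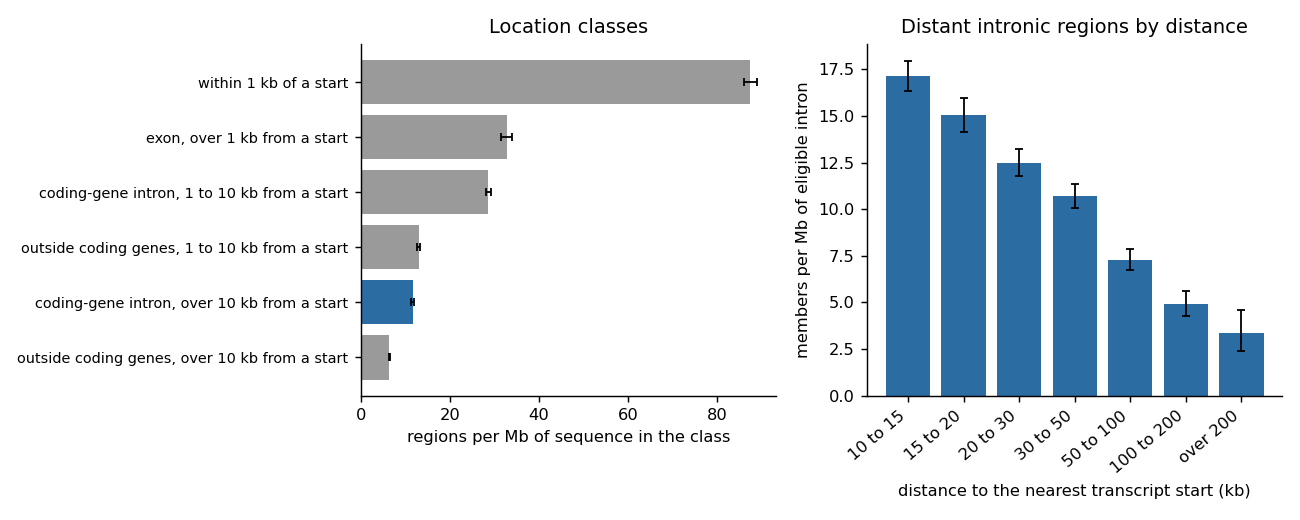
Left, density of condition 2 regions per Mb in the 6 location classes, with the distant intronic class in blue; right, members per Mb of eligible intron by distance to the nearest transcript start in kb. Bars are densities with exact Poisson 95% intervals, and the right panel falls from 17.1 to 3.36 per Mb.

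Intron rank was read on 1 reference transcript per gene, and 5535 of the regions lay in an intron of such a transcript. First introns, which in many genes hold regulatory elements, carried 14.1 regions per Mb (13.4 to 14.9). Second introns carried 11.99, the third introns 11.2, introns 4 to 5 carried 10.8, introns 6 to 10 carried 12, and introns 11 and later carried 10.54 (9.88 to 11.2). First introns were thus 1.25 times (1.18 to 1.33) as dense as all later ones together, and over all genes there was no steady decline after the first. In genes with a condition 2 region within 1 kb of a start the densities fell at each of these steps, from 23.3 to 16.5 per Mb, and in the other genes they went from 9.81 in first introns to 6.68 in introns 4 to 5 and 7.57 in introns 11 and later. First introns also lie nearer to starts, so the comparison was repeated within distance bands. It was 18.5 against 15.8 per Mb at 10 to 20 kb, 13.3 against 11.4 at 20 to 50 kb, and 7.46 (6.34 to 8.72) against 6.21 (5.76 to 6.69) beyond 50 kb, where the intervals overlap. In the 2969 genes with eligible sequence in both first and later introns the densities were 13.6 and 9.99 per Mb.

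Host genes were counted next. Of 8884 coding genes with any eligible intron, 2700 (30.4%, exact binomial 95% interval 29.4 to 31.4) carried at least 1 region, and among the 1209 genes with at least 100 kb of eligible intron the share was 68.2%. Most carrying genes had few: 1485 had exactly 1, 275 had 5 or more and 50 had 10 or more. The 100 genes with most regions held 19.3% of them in 6.63% of the eligible intron. A share of carrying genes rises with intron length by itself, so the density per Mb of eligible intron is the measure used for the genes below.

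By count, the leading model was Gm20388 with 125 regions in 1740 kb of eligible intron (71.8 per Mb). Gm20388 is an annotated coding model of 4.43 Mb on chromosome 8 whose span holds 71 other coding genes, so its count describes a gene-rich stretch of chromosome and not 1 gene. Fgfr2, a fibroblast growth factor receptor, and Gm37240 had 21 each and are also annotated here over long spans, with 29 and 6 other coding genes inside. Over the 68 models that span 3 or more coding genes, 118 regions (1.99%) had no other coding host.
Among ordinary genes, Nsmce2, a SUMO ligase of the SMC5/6 DNA repair complex, held 23 regions at 107 per Mb on chromosome 15, where the average was 27.5. Tbc1d22a, which encodes a TBC-domain protein, a family that regulates Rab GTPases, held 22 regions at 95.3 per Mb. Gse1 on chromosome 8 and Slc39a11, a zinc transporter gene on chromosome 11, each held 18, at 76.3 and 55.1 per Mb. Slit3, which encodes a secreted axon guidance ligand of Robo receptors, held 17 at 38.1 per Mb, and their median score of 19.01 in the authors' deposited table was higher than the 8.26 of Nsmce2. Astn2, an astrotactin gene, held 17 in 968 kb, and its 17.6 per Mb was 1.00 times its chromosome's average of 17.5. Chchd6, a subunit of the mitochondrial MICOS complex, held 16 at 88.8 per Mb, 8.27 times the average of chromosome 6.

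**Figure D2:**
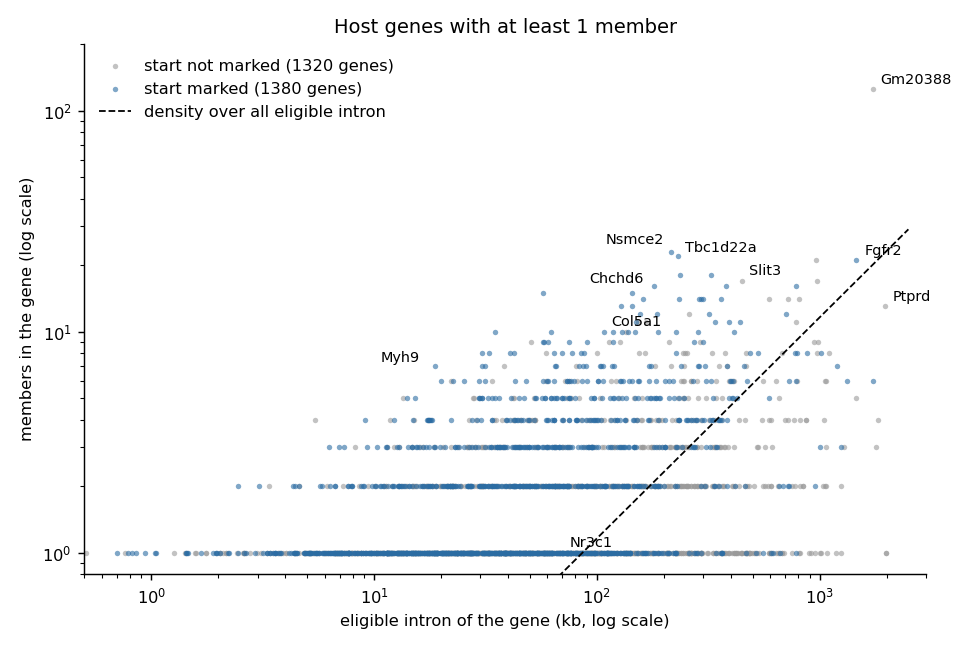
Number of members in each carrying gene against the gene's eligible intron in kb, both on log scales. Points are genes, blue where a region of condition 2 lay within 1 kb of one of the gene's starts, and the dashed line is the density over all eligible intron; Nsmce2 with 23 and Tbc1d22a with 22 lie far above it, and Ptprd with 13 in 1967 kb lies below it.

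Ranked by density among genes with at least 100 kb of eligible intron, Nsmce2 came first and Glis1, a zinc finger transcription factor, followed with 15 regions at 104 per Mb. Nxn, the redox protein nucleoredoxin, had 13 at 101 per Mb. Col5a1, which encodes a chain of type V collagen, had 10 at 93.3 per Mb, 10.2 times the average of chromosome 2. Mad1l1, a spindle checkpoint gene, had 13 at 90.4 per Mb, and Asap1, an Arf GTPase-activating protein of focal adhesions, had 14 at 87.3 per Mb. Hdac4, a class IIa histone deacetylase, had 10 at 84.8 per Mb, and Atxn10 had 8 at 79.6 per Mb. Of the 10 densest genes, which include Tbc1d22a and Chchd6, all but Atxn10 also had a condition 2 region within 1 kb of one of their own starts, against 39.2% of all 21938 coding genes. Among genes as long as these, it was 324 of 864 with 100 to 300 kb of eligible intron. It was 79 of 306 with 300 to 1000 kb and 8 of 39 with more.
Most genes with eligible intron held no region, short ones included, and the 5 with the most eligible intron among them were named by rule. Ctnna3 (alpha-T-catenin), Nrxn3 (neurexin 3), Rbfox1 (a neuronal splicing factor), Fhit and Gpc5 (a glypican) each offered between 1359 and 1419 kb of eligible intron and held no region. Their chromosomes averaged between 3.73 and 7.59 regions per Mb. Of the 5, only Ctnna3 had a region at a start.

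Gene length and density ran in opposite directions over all host genes. Genes with up to 10 kb of eligible intron held 24.7 regions per Mb, those with 30 to 100 kb held 17.1, those with 100 to 300 kb held 11.9, and those with more than 1000 kb held 4.92 (4.33 to 5.58). The genes whose own start was called in condition 2 held more. A called start was found in 51.1% of the 2700 carrying genes (49.2 to 53.0) and in 37.4% of the 6184 others (36.2 to 38.7). Density was 19.6 per Mb (18.99 to 20.3) in the 3695 genes with a called start and 7.77 per Mb (7.48 to 8.07) in the 5189 without. It was higher in the former on 20 of 20 chromosomes, by 1.45 to 6.31 times. Beyond 50 kb from any start the 2 kinds of gene still differed, with 11.6 per Mb (10.52 to 12.8) and 4.63 per Mb (4.24 to 5.04). In the 39 genes with more than 1000 kb of eligible intron the intervals overlapped, with 5.20 per Mb (3.91 to 6.78) and 4.85 per Mb (4.196 to 5.58). The long model Gm20388, without a called start, gave 125 of the 195 regions counted in the latter group. Fgfr2, a long model with a called start, gave 21 of the 54 counted in the former. This overlap therefore does not describe ordinary genes of that length. The 4.92 per Mb of all 39 genes includes the same 125 and 21.

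Gene lists for pathways and cell types were then compared per Mb of eligible intron, beside the density of the chromosomes on which their genes lie. Over all 8884 genes with eligible intron 30.4% carried a region, so the median gene had 0 per Mb. The share was 25.1% with 10 to 30 kb, 45.1% with 30 to 100 kb and 66.4% with 100 to 300 kb. It was 72.5% with 300 to 1000 kb and 74.4% with more. With 30 to 100 kb and a called start it was 56.5%. Counts of carrying genes in the lists below are to be read beside the share for genes of like length. The median gene had 38.5 per Mb in the actin and focal adhesion list, 17.3 in the Hippo list, 7.17 in the mesenchymal list, and 0 in the TGF-beta, Wnt, receptor tyrosine kinase, choline and glial lists. The medians of the other 4 lists lay between 1.61 and 3.82 per Mb. Genes of actin and focal adhesion, which link the cytoskeleton to the matrix, stood highest: 17 of 23 with eligible intron carried a region, at 32.8 per Mb (25.9 to 41.1), 3.16 times their chromosomes' density. Their median gene had 68.1 kb, and 20 of the 23 starts were called. All genes with 30 to 100 kb had 17.1 per Mb, or 24.7 (23.4 to 26.1) where the start was called. Tns3 (tensin 3) held 12 at 76.8 per Mb, Lpp (a LIM protein of focal adhesions) 11 at 25.1, Parva (alpha-parvin) 7 at 78.7, and Myh9 (nonmuscle myosin heavy chain) 7 in 18.7 kb, or 375 per Mb. Diaph3 and Vcl (vinculin), both on chromosome 14, held none in 391 and 68.1 kb. The level of this list moved with the settings: it was 21.7 per Mb with a 20 kb distance, and 16.4 per Mb over regions at or above the median score, where all eligible intron had 7.53. It was 25.2 per Mb without the 4 densest chromosomes, where all eligible intron had 9.82, and 44.6 per Mb with basic transcripts only.
Genes of synaptic and neuronal adhesion stood lowest in density although the share that carried a region was like that of the actin list, 22 of 29 against 17 of 23. The genes of this list are long, and it held 63 regions in 31.9 Mb, or 1.98 per Mb (1.52 to 2.53), 0.185 times its chromosomes' density. The median gene of the list had 1033 kb, and all genes with more than 1000 kb had 4.92 per Mb. Of the 249 regions counted in those genes, however, 125 lay in the long model Gm20388, in 1740 kb of their 50.6 Mb of eligible intron. The other genes of that length were therefore less dense than 4.92 per Mb. Their own density was not computed, so no difference from genes of like length is drawn. Ptprd held 13 at 6.61 per Mb, Csmd3 6 at 5.71, Dlg2 (the postsynaptic scaffold PSD-93) 6 at 4.51 and Csmd1 5 at 3.43, and Nrxn3 and Rbfox1 held none. Starts were called in 4 of the 29 genes, against 20 of the 23 in the actin list.
Glutamate and GABA receptor genes had 17 of 24 carrying a region, at 3.87 per Mb (2.71 to 5.36). The median gene of this list had 341 kb, and all genes with 300 to 1000 kb had 5.64 per Mb, or 4.29 (3.91 to 4.69) where the start was not called. In this list 2 of the 24 starts were called. Gria1, an AMPA receptor subunit, had 6 at 21.3 per Mb, 0.887 times the density of chromosome 11. Grm7 had 4 at 4.61 per Mb, Gabbr2 had 3 at 11.8, Grik4 had 3 at 8.30 (1.11 times the density of chromosome 9), and Gabrg3 and Grik2 had none in 531 and 480 kb.

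Signalling lists of the Hippo and TGF-beta pathways were denser than their chromosomes. Their median genes had 38.7 and 47.8 kb, and all genes with 30 to 100 kb had 17.1 per Mb, or 24.7 where the start was called, as it was in 16 of the 19 and 17 of the 25 listed genes. In the Hippo list, 11 of 19 genes carried a region at 30.2 per Mb (20.8 to 42.4). The coactivator gene Wwtr1 (TAZ) held 6 at 69.7 per Mb, the phosphatase Ptpn14 held 5 at 85.1, and Tead1, a DNA-binding partner of TAZ, held 5 at 42.3. The kinase gene Stk3 held 4 at 17.3 per Mb, below its chromosome's 27.5, and Fat4 and Vgll3 held none. In the TGF-beta and BMP list 11 of 25 genes carried a region, at 24.0 per Mb (16.8 to 33.2), 1.89 times the chromosome density. These included the ubiquitin ligase Smurf1 with 6 at 125 per Mb, the inhibitory Smad6 with 5 at 94.6, the coreceptor Tgfbr3 with 5 at 70.3 and the corepressor Ski with 4 at 118, whereas the receptor genes Acvr1 and Tgfbr2 had none in 105 and 73.2 kb.
Mesenchymal factors and matrix genes reached 25.1 per Mb (18.1 to 33.8), with 11 of 20 carrying a region. Their median gene had 70.4 kb, and 15 of the 20 starts were called. All genes with 30 to 100 kb had 17.1 per Mb, or 24.7 where the start was called. Besides Col5a1, Col4a2 (a basement membrane collagen) held 9 at 120 per Mb, the transcription factor Runx1 6 at 35.2 and fibrillin 1 (Fbn1) 6 at 32.4, while Fbn2 and Zeb2 held none.
The Wnt and beta-catenin list (7 of 21 genes, 12.4 per Mb, 7.37 to 19.7) and the choline and phosphatidylcholine list (9 of 20, 14.9 per Mb, 8.53 to 24.2) lay at 0.956 and 1.07 times their chromosomes' densities. Their median genes had 57.2 and 36.8 kb, with 14 of the 21 and 10 of the 20 starts called. All genes with 30 to 100 kb had 17.1 per Mb, which lies within both intervals, and 24.7 where the start was called. Lef1 held 5 at 66.6 per Mb, Wnt5b 4 at 79.7, Lrp5 3 and Tcf7l1 2, and Tle4 and Tcf7l2 held none. In the choline list the sphingomyelinase gene Smpd3 held 4 at 86.1 per Mb, the sphingomyelin synthase gene Sgms2 3 at 96.2, and the transporter genes Slc22a3 and Slc44a5 2 each, while the choline transporter genes Slc44a1 and Slc44a3 had none in 110 and 45.2 kb. Receptor tyrosine kinase genes had 7.52 per Mb (5.37 to 10.2), 0.680 times the chromosome density, with 9 of 25 carrying. Without Fgfr2, annotated over 29 other coding genes, it was 4.91. Their median gene had 96.2 kb, and 13 of the 25 starts were called. The 17.1 per Mb of all genes with 30 to 100 kb lies above that interval. Fgfr2 and Erbb4, however, gave 1450 and 889 kb of the list's 5.32 Mb, and genes with 300 to 1000 kb had 5.64 per Mb. Alk held 6 at 9.39 per Mb, Met 3 at 67.0 and Igf1r 3 at 15.2, and Erbb4 and Ntrk3 held none.

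The list of the glucocorticoid receptor and its cofactors also held genes that are neither. Among them were Sgk1, a gene induced by glucocorticoids, and Crhr1, a corticotropin-releasing hormone receptor gene. The genes of the whole list carried regions in 9 of 18 cases, at 10.4 per Mb (5.21 to 18.7), 0.918 times the chromosome density. Their median gene had 35.4 kb, and 13 of the 18 starts were called. All genes with 30 to 100 kb had 17.1 per Mb, which lies within that interval, and 24.7 where the start was called, which lies above it. Smarca4 (the remodeller BRG1) held 3 at 84.2, Crhr1, Stat5b and the coactivator gene Ncoa3 held 1 each, and Ncoa2 and Sgk1 held none. Nr3c1 itself carried 1 region, at chr18:39470033-39470153, 121 bp wide and 17.1 kb from the nearest start, and the authors' deposited table scored it 8.13. In 69.7 kb of eligible intron this makes 14.3 per Mb, against 8.10 for chromosome 18, and that ratio rests on 1 region.
Chromatin acetylation and methylation enzymes carried regions in 11 of 20 genes at 16.3 per Mb (10.6 to 23.8), 1.93 times the chromosome density. Without Hdac4 it was 10.8 per Mb. Apart from Hdac4, the demethylase gene Kdm4b held 4 in 26.7 kb, the DNA methyltransferase gene Dnmt3a 3 in 18.7 kb and Hdac9 2 in 717 kb, while Kdm6a and Kat2b (PCAF) held none. Glial and leukocyte markers had 3 carrying genes of 12, at 21.3 per Mb (7.81 to 46.3) and 1.85 times the chromosome density, or 8.57 per Mb without Mbp. These were Mbp with 4, and Itgam and Slc1a3 with 1 each, while Ptprc and Slc1a2 had none. The median genes of the chromatin and glial lists had 24.9 and 25.3 kb. All genes with 10 to 30 kb had 20.9 per Mb, or 30.5 where the start was called. Hdac9 alone, however, gave 717 kb of the 1.60 Mb of the chromatin list, and genes with 300 to 1000 kb had 5.64 per Mb. The pooled density of that list is therefore not like that of genes with 10 to 30 kb. Of 12 neuronal markers, 3 (Rbfox3, Syn1 and Dlg4) had a called start, as did 6 of 20 glial and leukocyte markers and 21 of 28 mesenchymal genes, against 39.2% of all coding genes. A distant intronic region was carried by 4 of the 8 neuronal markers with eligible intron and by 11 of the 20 mesenchymal genes. Since unchanged acetylation is not in the list, these counts do not show which cell type's genes were acetylated.

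**Figure D3:**
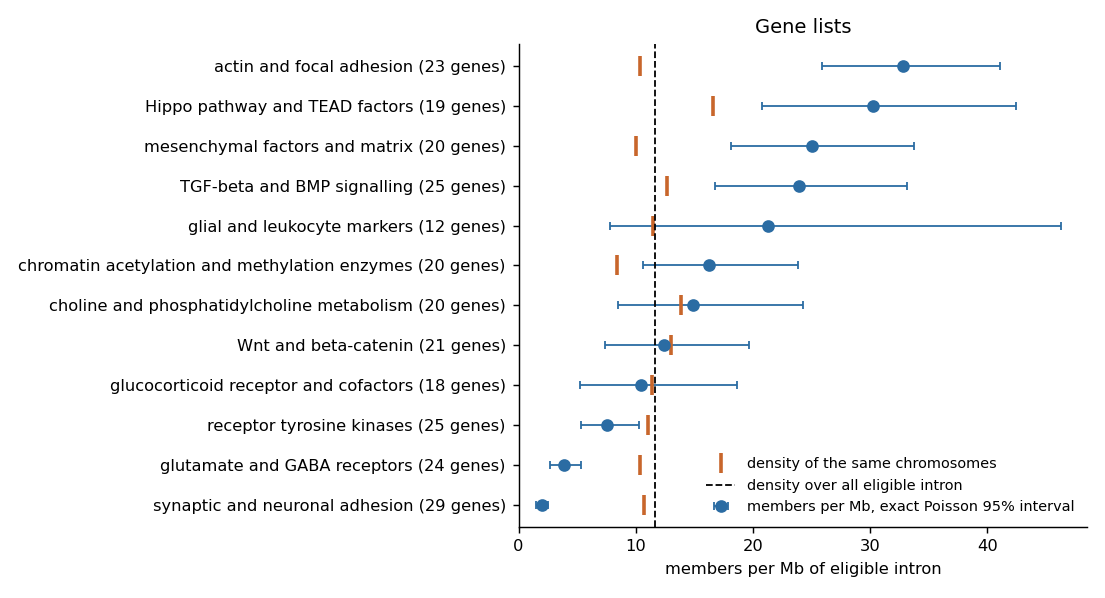
Members per Mb of eligible intron in 12 gene lists (points, with exact Poisson 95% intervals), the density of the chromosomes that hold each list's genes (orange ticks) and the density over all eligible intron (dashed line, 11.6 per Mb). The lists run from 1.98 per Mb for synaptic and neuronal adhesion to 32.8 per Mb for actin and focal adhesion.

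Chromosomes differed widely. Chromosome Y, with 3 regions in 1.72 Mb of eligible intron, was left out of the comparison of chromosomes. Over chromosomes 1 to 19 and X, density was 27.5 per Mb (chromosome 15) and 24.0 (chromosome 11) at the top, 17.5 on chromosome 4, and 3.73 (chromosome 14) and 3.42 (chromosome X) at the bottom, an 8.02-fold range. With a 20 kb distance chromosome 14 was the lowest. The median over 20 chromosomes was 9.67 per Mb. The same ordering held largely for regions outside coding genes and over 10 kb from a start, whose range was 7.96-fold and whose densities correlated with those in introns at r = 0.944 over 20 chromosomes, points that share the same libraries. For regions within 1 kb of a start the range was 3.71-fold and the correlation r = 0.956 over the same 20 chromosomes. Regions with scores below 7 and with scores of 19 and above spanned 8.05-fold and 7.70-fold.

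**Figure D4:**
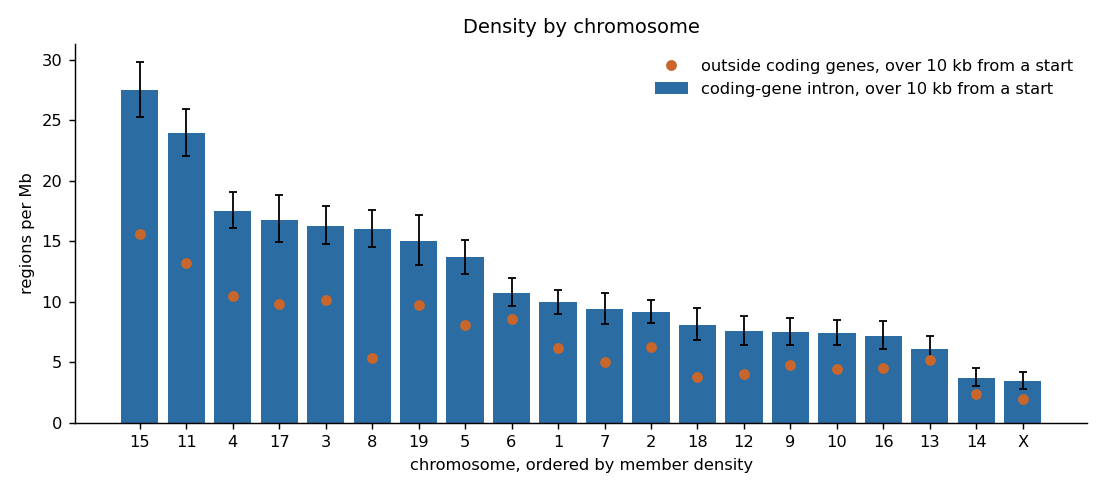
Density of condition 2 regions per Mb on chromosomes 1 to 19 and X, ordered by the density of the distant intronic regions (bars, exact Poisson 95% intervals), with regions outside coding genes at the same distance from starts as points. Bars run from 27.5 on chromosome 15 to 3.42 on chromosome X.

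The score is the authors' value for each region, in MACS2 a log10 likelihood ratio, and serves here only to rank regions within the list. In the authors' deposited table the distant intronic regions ran from 3.18 to 35.1 with a median of 10.4, against 5.04 for regions within 1 kb of a start and 10.1 outside coding genes at the same distance. A score below 7 was given to 36.9% of them and to 74.5% of the regions at starts. One exact value, 19.01 when rounded, was shared by 535 of them (9.01%), by 1.69% of the regions at starts, by 5.30% of those in introns 1 to 10 kb from a start and by 10.3% of those outside coding genes at the same distance. By the authors' deposited table, the 5 top-ranked regions lay in Slit3 (35.1), Tbc1d22a (34.4), Magi3 (33.7), Rab11fip4 (33.3) and Kcnk9 (33.0). Width was 162 bp in the median, against 183 bp at starts. The 5 widest regions lay in Gk5 (664 bp), Adam19 (566 bp), Zdhhc19 (517 bp), Cfdp1 (515 bp) and Camk2d (512 bp). None of these 5 was among the 5 highest scores.

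The regions were richer in G and C and poorer in repeats than the introns around them. G+C was 47.9% of their bases, 45.0% in same-width windows 2 kb to each side and 41.5% in all eligible intron, with 11.96, 10.2 and 7.76 CpG dinucleotides per kb. Soft-masked bases, which the assembly writes in lower case where it holds interspersed or simple repeats, made up 21.7% of the regions, 25.5% of the flanking windows and 29.8% of the eligible intron. No masked base at all was found in 38.8% of the regions (37.6 to 40.1) and 33.6% of the flanking windows (32.7 to 34.5), while wholly masked windows were equally common at 5.00% and 5.04%. Short tandem repeats differed most: 2.69% of the regions (2.30 to 3.14) held one, against 7.07% of the flanking windows (6.59 to 7.58). Runs of at least 8 CA copies were found in 0.808% and 2.28%. The central 32 bases occurred elsewhere in the genome for 7.12% of the regions, 8.22% of flanking windows and 15.9% of the regions outside coding genes at the same distance. Reads from repeated sequence are hard to place, and its part in these shares was not tested. Names of repeat families were not used here.

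Of 17 motifs searched on both strands, some were more frequent in the regions than beside them. The AP-1 letters TGACTCA or TGAGTCA were in 236 regions, 3.97% (3.49 to 4.50), against 2.94% of flanking windows (2.63 to 3.28) and 2.59% of all 162-bp windows of eligible intron. Windows 5 kb away gave 2.51%. The share was 4.57% among regions with scores below 7 and 2.62% among those with the commonest score, and it was 2.43% at transcript starts, 3.72% in introns 1 to 10 kb from a start and 4.21% outside coding genes at the same distance. The GC box GGGCGG, bound by SP and KLF factors, was in 3.50% against 2.32% of flanking and 1.28% of all windows, far below its 21.5% at starts. The lineage-type E-box CAGCTG was in 10.6% against 8.30% and 5.88%, and the NF-kB motif in 2.26% against 1.41% and 1.07%. The AT-rich homeodomain letters TAATTA went the other way, at 3.28% against 4.41% and 6.24%.
Of the other motifs, SOX and NFI lay above the flanking share with overlapping intervals, and the rest were within or near it. The SOX intervals were 3.51 to 4.52% in the regions and 2.99 to 3.68% in the flanking windows. For NFI they were 8.73 to 10.2% and 7.85 to 8.91%. TEAD letters GGAATG were in 8.96% against 9.14%, RUNX letters TGTGGTT in 4.14% against 4.36%, forkhead letters TGTTTAC in 2.15% against 2.32%, NF-Y letters CCAAT in 20.03% against 20.5%, the E-box CACGTG in 2.26% against 2.09%, SOX letters ACAAAGG in 3.99% against 3.32%, and NFI letters TTGGCA, which can overlap an inverted CCAAT, in 9.46% against 8.37%. In all windows these shares were 8.79%, 3.76%, 2.51%, 23.5%, 1.63%, 3.46% and 8.04%. The ETS, CRE and CTCF motifs were in 14, 4 and 8 regions.
For the steroid receptors, including the glucocorticoid receptor, the single element AGAACA was in 15.4% of the regions (14.4 to 16.3), 15.4% of flanking windows and 15.3% of all windows. The full element, made of that word and its inverse 3 bases apart, was in 0 of 5940 regions, which allows up to 0.0621% by the exact interval, and in 0.00428% of all windows, so that its absence says little at this number.
Among all 7-letter words the largest excess over the flanking windows, in percentage points, was for CCTGCCC, in 6.92% against 4.06% with 2.73% in all windows. The words CTGCCCC (6.21% against 3.39%, with 2.46% in all windows) and CAGCAGC (6.62% against 4.38%, with 3.30%) followed. By ratio, CGGGACC stood first among words in at least 60 regions (1.01% against 0.405%, with 0.330% in all windows). Among AT-rich words, ATATATA was in 1.65% against 3.48%, with 4.64% in all windows. Base composition differs between the sets in the same direction as most of these words, and its part in the motif shares was not tested.

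**Figure D5:**
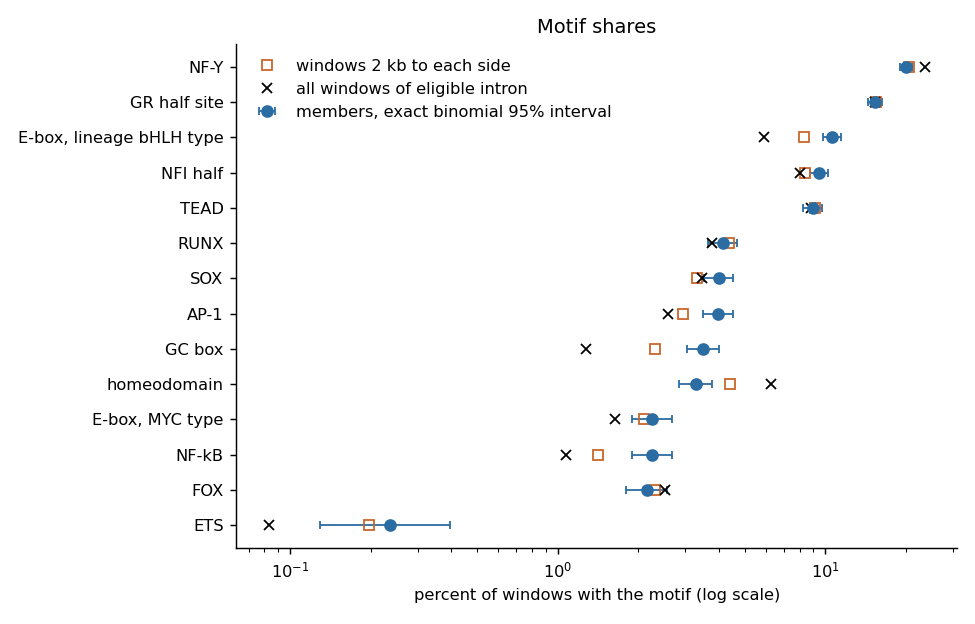
Percent of windows with each motif, on a log scale, in the members (circles, exact binomial 95% intervals), in same-width windows 2 kb to each side (squares) and in all 162-bp windows of eligible intron (crosses), for motifs in over 0.2% of members. The intervals of AP-1, GC box, NF-kB, SOX, NFI and the lineage-type E-box lie to the right of both comparison sets, and that of the homeodomain motif lies to the left.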

How the data were processed

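H3K9ac ChIP and input DNA of HT22 cells were sequenced in 4 libraries. The submitters' processing notes name build mm10, CASAVA 1.8, Bowtie 1.0.0 and MACS2, the last with no version. Per the series' design text, peaks were called against input and then compared between the choline levels with MACS2 bdgdiff. The deposited file lists regions unique to either condition with a score, which the authors' caller assigned. Library depth and scaling between libraries are not given in the sources used here. No precision per library can be stated.

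Regions were placed by midpoint on GENCODE M21 and the RefSeq GRCm38.p6 sequence (mm10), with Python 3.11.15, numpy 2.4.6, pandas 2.3.3 and scipy 1.17.1. Eligible intron is every base, N left out, at which a midpoint would meet the 3 conditions. Densities have exact Poisson and shares exact Clopper-Pearson 95% intervals. Rank came from 1 transcript per gene (APPRIS, CCDS, coding length, span). A start was called when a condition 2 region overlapped the 1 kb either side of any of the gene's starts. A region in several coding genes counted in each (165 regions). Density and motif counting were tested on simulated data.

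Genes were named by rule: the 10 with most regions, the 10 densest with at least 100 kb eligible, the 5 largest with none, up to 4 with most and 2 with none in each of 12 lists, and Nr3c1; the other genes and the Col5a1 sequence were chosen after values were seen. Members and lists were chosen with earlier results of these data known. One gene was taken out of a list afterwards and is not reported here. Alternatives were the distance, exon overlap, transcript set, score, tied scores and chromosomes left out, and, chosen after seeing the data, long gene models. No test between choline levels was made.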

Additional observations from a re-analysis of the deposited data

How the results depend on the processing

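Of 120 alternative values, 77 stayed within the main 95% interval (for the number of regions, within 1.5 times) and 43 moved outside it. A reversal could appear only in the first-to-later intron ratio and the ratio of genes with and without a called start. It appeared in 0 of those values. The ratio of highest to lowest chromosome density cannot reverse by construction, and the other results were not checked for it. For the values below the cause was not tested beyond what each setting removes or adds. With a 5 kb distance there were 9184 regions at 13.8 per Mb with 48.3% G+C. With 20 kb there were 3143 at 9.25 per Mb, with 47.4% G+C and a median score of 11.3. With basic transcripts only there were 9053 at 14.1 per Mb, in 35.0% of genes, with a first-to-later intron ratio of 1.12, 20.6% soft-masked bases and 48.5% G+C. At or above the median score of condition 2 there were 3855 at 7.53 per Mb, in 24.2% of genes, with a ratio of 1.14, 22.8% soft-masked, 47.5% G+C and a median score of 16.5. Without the 2 commonest scores the values were 10.2 per Mb, 27.5% of genes, 48.2% G+C, a median score of 9.45 and a median width of 166 bp. Without a base in an exon the density was 11.3 per Mb, and on autosomes 12.1 per Mb with 31.5% of genes. Without the 4 chromosomes densest in condition 2 regions (11, 15, 19 and 17) it was 9.82 per Mb in 27.98% of genes, with a ratio of 1.34, 47.7% G+C and a 5.12-fold chromosome range. The AP-1 share was 2.21% in the central 100 bases (1.76% in flanking windows). Leaving out the long gene models, an alternative chosen after seeing the data, kept 5822 regions at 11.5 per Mb. The ratio of genes with and without a called start lay between 2.30 and 2.72 throughout. The start calls of the main setting were kept in every alternative, and newly eligible genes were left out of this split. Its dependence on how starts were called was therefore not tested.

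No paired analysis was possible because the labels give no replicate numbers and the list has no value per library. With at most 1 ChIP library per choline level, library depth, antibody efficiency and choline level cannot be told apart, and no single library was left out.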

Other observations

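Many of the distant intronic regions lay close together. Another one was found within 5 kb for 28.2% of them and within 50 kb for 63.3%, and joining those up to 12.5 kb apart gave 72 groups of 5 or more with 414 regions (6.97%). The largest group was in Ahnak on chromosome 19, a gene for a very large scaffold protein of the plasma membrane, with 15 regions over 51.3 kb and a median score of 5.49 in the authors' deposited table. On chromosome X, which had the lowest density of chromosomes 1 to 19 and X, Car5b (a mitochondrial carbonic anhydrase) had 10 regions over 33.1 kb, with no score above 7.72 in the authors' deposited table. Rab31, a vesicle transport GTPase gene on chromosome 17, had 9 over 39.1 kb, and Ago2, an Argonaute of small RNA silencing, and Gramd4, both on chromosome 15, had 8 each, as did Galnt2 on chromosome 8. These groups were chosen for their size after the data were seen.

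In windows of 5 Mb with at least 0.5 Mb of eligible intron, 12 of 421 held no region, and the median was 9.02 per Mb. The densest window was at 25 to 30 Mb of chromosome 17, with 41 regions at 75.2 per Mb. The next was at 120 to 125 Mb of chromosome 8, with 132 regions at 71.7 per Mb, which is the stretch covered by Gm20388. Of the 32 condition 1 regions in eligible introns, 21 lay within 10 kb of one of the distant intronic regions of condition 2. The share of eligible intron within that distance was not computed. The count therefore cannot show whether they lay closer to such regions than other intronic sequence does.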
